A study of Homo sapiens with 6 samples.

Results

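DDIT4 and 9 further genes that form or control mTORC1, the nutrient-sensing kinase complex, were followed in 6 RNA-seq libraries of OCI-AML3, an established cell line from human acute myeloid leukaemia. The 10 genes were taken from a fixed list of symbols (DDIT4, TSC1, TSC2, RHEB, MTOR, RPTOR, AKT1S1, DEPTOR, RRAGD and CASTOR1), and all 10 were found among the 60660 gene IDs of each file. The genes were chosen by their role and by normalised read values already seen in this comparison of the study's 2 groups, so their values in it are given as a description, with no test of them. In the empty vector group, called controls here, 3 libraries came from cells carrying the lentiviral vector alone. In the SLC2A3 group, 3 libraries came from cells overexpressing SLC2A3, the gene of the glucose transporter GLUT3. All 6 libraries came from cells given 250 µM vitamin C, so no effect of the vitamin itself can be read from them. The labels state neither the promoter of the vector, nor whether the lines were clones, nor whether replicates were separate cultures, and the spread between replicates may therefore be technical.

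mTORC1 joins the kinase MTOR with the scaffold RPTOR and the shared subunit MLST8, and it is restrained by the bound inhibitors AKT1S1 (PRAS40) and DEPTOR. Growth factor and stress signals reach it through the TSC1-TSC2 complex, which switches off the small GTPase RHEB, and DDIT4 (REDD1) is a stress-induced protein that acts through TSC2 to lower mTORC1 activity. Amino acids act through the Rag GTPases at the lysosome, where RRAGD is one of the Rag subunits and CASTOR1 is a sensor of arginine. DDIT4 transcription is known to be raised by hypoxia, by the amino acid and ER stress factor ATF4, by DNA damage and by glucocorticoids.

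The upstream sequence of DDIT4 is shown because DDIT4 had the largest difference of the 10 genes, and because hypoxia response elements are among its known inputs. It is the 250 bases before the RefSeq start on the plus strand, chr10:72273674-72273923 in GRCh38.p14. Capitals mark ACGTG, a form of the core of the hypoxia response element, and the NF-Y box CCAAT, here on the reverse strand as ATTGG. Other forms of that core, such as GCGTG, were neither searched for nor marked.
DDIT4: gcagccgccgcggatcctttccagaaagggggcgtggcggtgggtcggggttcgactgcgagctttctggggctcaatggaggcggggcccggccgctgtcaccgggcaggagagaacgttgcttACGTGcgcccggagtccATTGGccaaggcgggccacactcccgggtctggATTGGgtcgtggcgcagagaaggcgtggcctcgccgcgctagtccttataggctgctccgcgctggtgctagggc

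The ACGTG match begins 125 bases before the start. Of all 35116 RefSeq promoters, 18.5% held ACGTG on either strand in the same window, and 32.0% held CCAAT. RefSeq promoters were matched by symbol for 6 of the 10 genes. DEPTOR, RRAGD, TSC2 and AKT1S1 were not matched. Among the 6, DDIT4 and RHEB held ACGTG, and 4 (DDIT4, CASTOR1, RHEB and MTOR) held CCAAT. The SP1 GC box GGGCGG was found in 4 of the 6 and in 42.6% of all promoters, but DDIT4 had no match. None of the 6 held the E-box CACGTG, which contains ACGTG, the palindromic CLEAR motif, which contains both, the ATF4 composite element TGATGNAAN, the CRE TGACGTCA or the full glucocorticoid response element. These were found in 6.34%, 0.308%, 3.13%, 1.65% and 0.00285% of all promoters. These matches describe letters in a window and do not show that a factor is bound. For comparison, short stretches around ACGTG, with those letters in capitals, are given for 2 hypoxia target genes that rose with SLC2A3, P4HA1 (chr10:73096938-73096962) and BNIP3 (chr10:131982043-131982067). Both genes are on the minus strand, the sequences are written in the direction of the gene, and the match reads CACGT because it lies on the opposite strand. In BNIP3 the next letter makes it CACGTG, which holds the match on both strands. Of the 14 hypoxia target genes described further on, 8 had a RefSeq promoter by symbol and 5 of these held ACGTG.
DDIT4: aacgttgcttACGTGcgcccggagt
P4HA1: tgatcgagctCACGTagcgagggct
BNIP3: gcacgcgccgCACGTgccacacgca

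Values are normalised reads, that is, gene read counts that the authors divided by 1 factor per library. The libraries held between 31054462 and 35770556 reads. SLC2A3 itself stood at 1211 ± 40.2 normalised reads among controls and 3942 ± 196 with SLC2A3 (SD, n = 3 each), and reads of the vector-borne gene and the cell's own cannot be told apart. Of 14 markers of acute myeloid leukaemia and monocytic cells, all were detected, among them SPI1, CD33 and LYZ, and their summed level was 60237 to 65144 normalised reads per library. Of these markers, 1 was called, FLT3, which fell (log2 change -0.21, limma adjusted p = 0.0277) and was not called on leaving out any library other than control replicate 2 (adjusted p of 0.062 to 0.155), and 5 had an unadjusted p under 0.05. The 21 markers of epithelial, fibroblast, T, B and erythroid cells summed to 229 to 280 per control library and 235 to 304 per SLC2A3 library, and 5 of them, CD3D, CD3E, MS4A1, HBB and HBA1, were listed at 0 in every library. The 5 fibroblast markers summed to 8.15 to 29 among controls and 24.6 to 74.8 with SLC2A3, and the part of such transcripts in the results was not tested. In bulk RNA, fewer cells making a transcript and less of it per cell cannot be told apart. The noncoding RNA RN7SL1 was uneven, at 538, 1812 and 705 normalised reads in control replicates 1, 2 and 3 and at 2233, 6026 and 1922 in SLC2A3 replicates 1, 2 and 3.

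Levels per kilobase of the longest annotated transcript placed the 10 genes over a wide range. RHEB was highest, at 874 ± 27.9 normalised reads per kilobase among controls (SD, n = 3). TSC2 followed at 635 ± 37.2, AKT1S1 at 569 ± 65.8, RPTOR at 445 ± 14.5, MTOR at 408 ± 23.6 and TSC1 at 207 ± 6.59. The subunit MLST8, at 1357 ± 41.3 per kilobase, exceeded all of them. At the low end, RRAGD stood at 110 ± 13.6, DDIT4 at 34.5 ± 0.889, DEPTOR at 13.7 ± 1.29 and CASTOR1 at 5.58 ± 3.09 per kilobase. Over all 6 libraries, the levels of TSC2 and AKT1S1 overlapped, as did those of RPTOR and MTOR and those of DEPTOR and CASTOR1. The other neighbours in this order did not overlap. With the summed length of all annotated exons in place of the longest transcript, TSC2 came below AKT1S1, MTOR and RPTOR, MTOR above RPTOR and RRAGD above TSC1, so these places depend on which length is used.

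**Figure D1:**
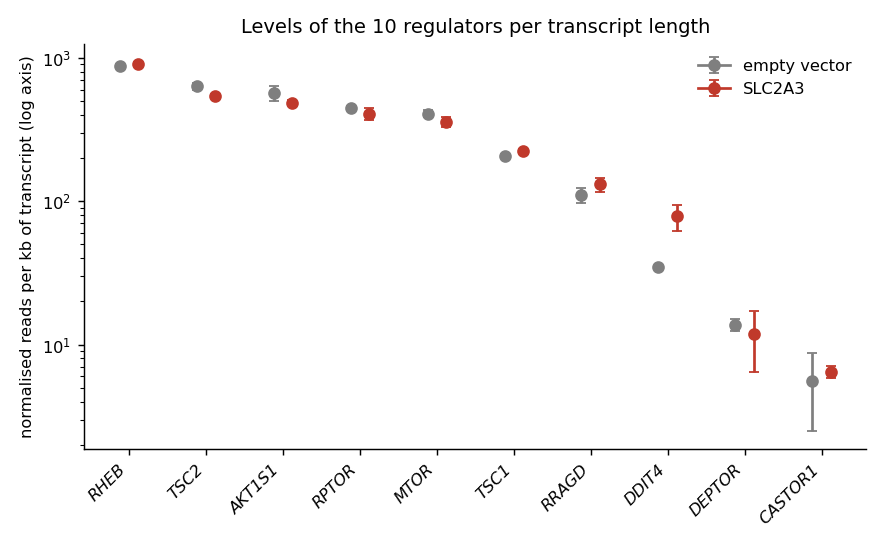
Mean level of each of the 10 genes per kilobase of its longest transcript in the empty vector (grey) and SLC2A3 (red) libraries, on a log axis, with bars for the SD over 3 libraries. The order is the same in both groups, and DDIT4 shows the widest gap between them, 34.5 against 78.2 normalised reads per kilobase.

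DDIT4 (ENSG00000168209.5, chromosome 10, 72273920 to 72276036, GRCh38) was the member with the largest difference. It had 60.1, 59.0 and 62.1 normalised reads in control replicates 1, 2 and 3, and 169, 115 and 126 in SLC2A3 replicates 1, 2 and 3. The groups did not overlap, and the lowest SLC2A3 library was replicate 2. With SLC2A3 the mean was 137 ± 28.5 against 60.4 ± 1.55 (SD, n = 3 each), a ratio of 2.26, with a log2 change of 1.15 (SE 0.20). These values rest on 180 reads over the control libraries and 420 over the SLC2A3 libraries. The control libraries lay closer together than reads alone would place them, with a coefficient of variation of 2.57% where counting error predicts 12.9%. In the SLC2A3 group it was 20.9% against 8.45%, with replicate 1 standing highest. Without SLC2A3 replicate 1 the log2 change was 0.98. DDIT4 was lowest in replicate 2 of each group, where RN7SL1 was highest. The paralogue DDIT4L was listed at 0 in all 6 libraries, as was the antisense gene DDIT4-AS1, whose annotation overlaps DDIT4.

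The means of TSC1 and TSC2, the pair of proteins that relay the DDIT4 signal, differed in opposite directions. Of this pair only TSC2 was called by limma, and TSC1 was not called under any of 18 alternative fits. TSC2 (chromosome 16, 2047465 to 2089487), the subunit with the GTPase-activating domain for RHEB, had 4000, 3809 and 4279 normalised reads in the control libraries and 3465, 3527 and 3387 in the SLC2A3 libraries. The groups did not overlap, and the SLC2A3 libraries differed little from each other. The mean was lower in the SLC2A3 group, at 3459 ± 70.3 against 4029 ± 236, a log2 change of -0.22 (SE 0.05). TSC1 (chromosome 9, 132891348 to 132946874), which stabilises TSC2, had 1742, 1854 and 1818 in the control libraries and 1889, 2020 and 1968 in the SLC2A3 libraries, again with no overlap, and a log2 change of 0.12 (SE 0.06). The number of TSC2 reads per TSC1 read was accordingly 2.30, 2.05 and 2.35 in the control libraries and 1.83, 1.75 and 1.72 in the SLC2A3 libraries. The third subunit, TBC1D7, had a log2 change of -0.04 (limma adjusted p = 0.922).

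TSC2 lies between genes whose annotations overlap it on the opposite strand, and the sources used here do not state whether reads were counted by strand. NTHL1, a DNA glycosylase gene that shares 402 bases with TSC2, rose, from 1573 ± 26.3 to 1891 ± 116 normalised reads (log2 change 0.26, SE 0.06, limma adjusted p = 0.0186), opposite to TSC2. PKD1, which overlaps TSC2 by 778 bases, had 3606 ± 186 and 3265 ± 64.0 (log2 change -0.14, limma adjusted p = 0.208). The share of reads that passes between these genes was not tested.

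RHEB (chromosome 7, 151466012 to 151520120), the GTPase that activates mTORC1, varied least between the groups. Its values were 1786, 1775 and 1880 normalised reads in the control libraries and 1854, 1932 and 1872 in the SLC2A3 libraries. The groups overlapped, and the log2 change was 0.06 (SE 0.06). Its relative RHEBL1 was low, at 85.5 ± 7.43 and 87.7 ± 25.2 normalised reads.

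Among the components of the complex itself, 3 of the members had lower means with SLC2A3 and overlapped or nearly touched between groups. MTOR (chromosome 1, 11106535 to 11262507) had 3623, 3305 and 3687 normalised reads in the control libraries and 3347, 2848 and 3163 in the SLC2A3 libraries, a log2 change of -0.18 (SE 0.06). RPTOR (chromosome 17, 80544819 to 80966371) had 2785, 2810 and 2957 against 2757, 2317 and 2779, a log2 change of -0.13 (SE 0.06). RPTOR did not overlap between groups, but only by the gap from 2779 to 2785, and SLC2A3 replicate 2 set most of its difference. Without that library its log2 change was -0.04. AKT1S1 (chromosome 19, 49869033 to 49878459), the proline-rich inhibitor, had 2271, 1805 and 2133 against 1814, 1686 and 1818, a log2 change of -0.22 (SE 0.07). Its annotation overlaps that of TBC1D17, on the opposite strand. MTOR, RPTOR and AKT1S1 were each lowest in SLC2A3 replicate 2, the library highest in RN7SL1, and MTOR and AKT1S1 were also lowest within their group in control replicate 2. The part of RNA composition in these differences was not tested. Without both replicate 2 libraries, AKT1S1 had a log2 change of -0.28, and MTOR and RPTOR had -0.17 and -0.05. MLST8 had a higher mean with SLC2A3, at 2871 ± 87.5 and 3222 ± 138 normalised reads (log2 change 0.17, SE 0.05, limma adjusted p = 0.126), and did not pass the threshold.

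DEPTOR, the inhibitor that binds both MTOR complexes, had few reads, 105 over the control libraries and 92 over the SLC2A3 libraries. It had 33.6, 33 and 39.0 normalised reads in the control libraries and 14.9, 41.2 and 35.2 in the SLC2A3 libraries. SLC2A3 replicate 1, the library highest in DDIT4, was the lowest in DEPTOR, and the other 2 lay within or above the control range. The log2 change of -0.32 (SE 0.37) became 0.12 without that library.

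In the amino acid branch, RRAGD (chromosome 6, 89364636 to 89412270) had 513, 616 and 491 normalised reads in the control libraries and 568, 710 and 647 in the SLC2A3 libraries. The groups overlapped, through control replicate 2, and the log2 change was 0.25 (SE 0.10). Replicate 2 was the highest library of each group. The other Rag genes had close means in both groups, controls first, at 789 ± 92.5 and 823 ± 66.9 for RRAGA, 287 ± 19.2 and 276 ± 24.3 for RRAGB and 354 ± 12.1 and 357 ± 17.2 for RRAGC. CASTOR1 (chromosome 22, 30285117 to 30289627) had few counted reads, 27 over the control libraries and 32 over the SLC2A3 libraries. Its annotation shares 4390 bases with another protein-coding gene on the same strand, ENSG00000248751, which had a mean of 0 in both groups. Whether reads in the shared stretch were left uncounted was not tested. The CASTOR1 log2 change of 0.32 (SE 0.56) has no settled direction, since it was -0.11 without control replicate 2, which had 4 reads. CASTOR2, the paralogue with which CASTOR1 forms arginine-sensing dimers, had far more counted reads, at 972 ± 23.5 normalised reads per kilobase among controls. CASTOR2 is not among the 10, and it fell. It had 1247, 1189 and 1229 normalised reads in the control libraries and 1022, 886 and 1070 in the SLC2A3 libraries, a log2 change of -0.30 (SE 0.07, limma adjusted p = 0.0259). The call was lost without control replicate 1 or 3 or SLC2A3 replicate 2, with adjusted p of 0.0957 to 0.169 and a log2 change of -0.22 to -0.30. CASTOR2 has a near relative in the annotation, CASTOR3P, with which its reads could be shared.

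**Figure D2:**
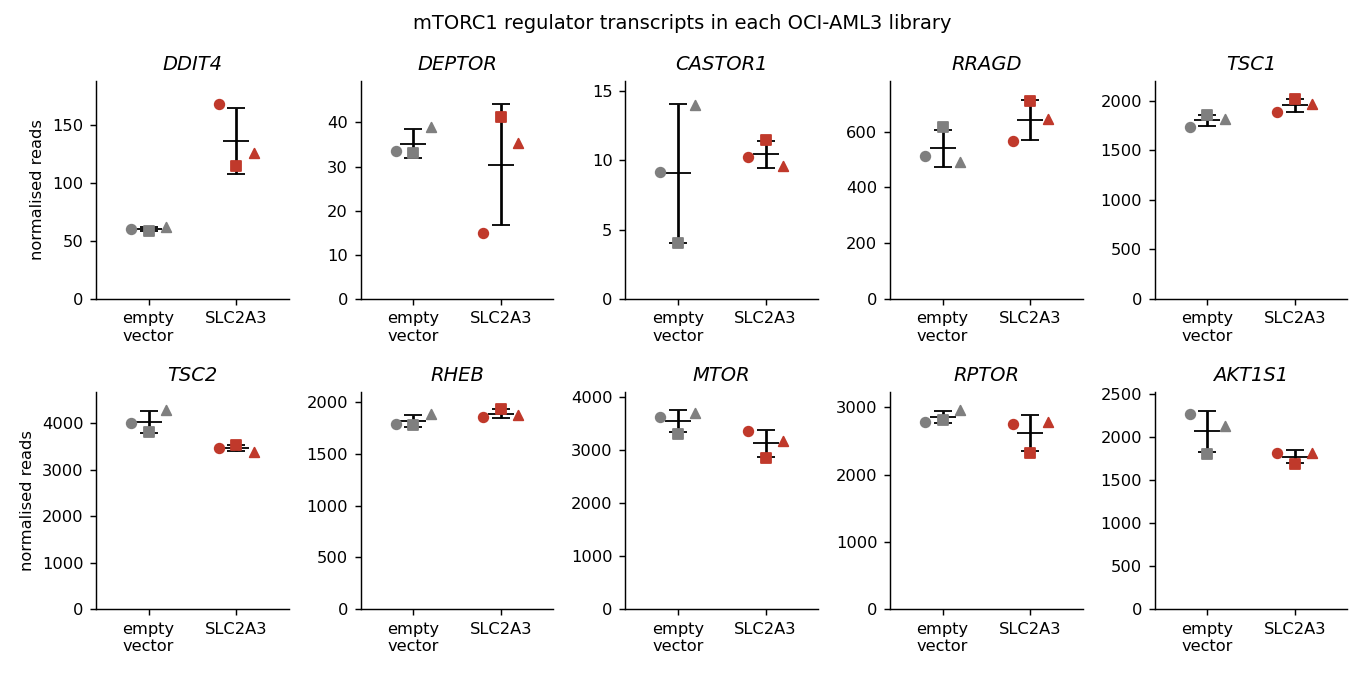
Normalised reads of each of the 10 genes in each library, with axes that start at 0, for the empty vector (grey) and SLC2A3 (red) groups. Circles, squares and triangles are replicates 1, 2 and 3, and black lines are the mean and SD over 3 libraries. DDIT4 is higher in all 3 SLC2A3 libraries (115 to 169) than in any control library (59.0 to 62.1), and TSC2 is lower.

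By the limma fit to log2(value + 1) over all genes, 2 of the 10, DDIT4 and TSC2, were past an adjusted p of 0.05, where 1.49% of the 28015 genes tested were. The count test of edgeR with TMM factors also called 2 of the 10, and 3.29% of the 18630 genes it tested. DESeq2 called 3 of the 10 (TSC2, MTOR and AKT1S1), and 9.27% of the 8633 genes to which it gave an adjusted p. DDIT4, DEPTOR and CASTOR1 were given no adjusted p by DESeq2, so they could not be called by it. The groups did not overlap for 4 of the 10 (DDIT4, TSC1, TSC2 and RPTOR), where 16.3% of all genes tested did not. All 10 passed the filter on low values. Because the list was chosen with these differences known, nothing is read from either count. The median log2 change of the 10 was -0.04, beside 0.00 for all genes tested. DDIT4 stayed past the threshold without any 1 library, while TSC2 was not past it without control replicate 1 or 3 or SLC2A3 replicate 1 or 3, with log2 changes of -0.17 to -0.22.

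The other genes of the pathway were taken from lists of textbook members, none of them among the 10. Of 168 tested, 7 rose and 3 fell, against shares of 0.692% higher and 0.800% lower over all genes tested. The counts at an unadjusted p under 0.05 given for lists below stand beside 11.8% of all genes tested by limma. The counts called by edgeR and DESeq2 stand beside the shares given above. Genes to which edgeR or DESeq2 gave no adjusted p count here and below as not called. The 11 lists of signalling components and factors accounted for 1 of the 7 and for all 3 of the others, over 110 tested genes with a median log2 change of -0.01.

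In the lysosomal branch, LAMTOR4, a subunit of the Ragulator complex that holds the Rag GTPases at the lysosome, rose from 6433 ± 409 to 7382 ± 264 normalised reads (log2 change 0.20, SE 0.05, limma adjusted p = 0.0234). It was the single call among 9 tested Rag, Ragulator and SLC38A9 genes (list median 0.06), and it was lost on leaving out any library other than control replicate 2 (adjusted p of 0.0632 to 0.183). Among 7 amino acid sensors, CASTOR2 was the single call, and the list median was -0.02. SESN1, SESN2 and SESN3, which encode the sestrins, had log2 changes of -0.02, -0.07 and -0.08 and did not pass. Of 12 genes of GATOR1, GATOR2 and KICSTOR, which relay amino acid signals to the Rags, limma called 0, with 1 at an unadjusted p under 0.05. edgeR and DESeq2 each called 1.

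Among 8 further subunits and assembly factors of mTORC1 and mTORC2, limma and edgeR called 0, DESeq2 called MLST8, and 3 had an unadjusted p under 0.05 by limma. RICTOR and MAPKAP1, which define mTORC2, had log2 changes of -0.01 and -0.03. For FLCN, FNIP and the MiT/TFE factors, limma, edgeR and DESeq2 called 0 of 7, with 2 at an unadjusted p under 0.05 by limma, and TFEB, whose nuclear entry mTORC1 restrains, had a log2 change of 0.07. For AMPK and LKB1 the same 3 tools called 0 of 9, with 0 at an unadjusted p under 0.05. For the 17 genes of PI3K and AKT signalling limma called 0, with 6 at an unadjusted p under 0.05 and 14 negative log2 changes, where 49.7% of all genes tested were negative. edgeR and DESeq2 each called 2 of them, the phosphatase gene INPP5D (log2 change -0.13) and the PI3K adaptor PIK3R5 (-0.21). The list median was -0.08.

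Of 19 substrates and effectors of mTORC1, limma called 0, with 5 at an unadjusted p under 0.05, edgeR called 1 and DESeq2 called 3. The translation repressor EIF4EBP1, called by both count tools, had 4613 ± 91.5 and 5192 ± 242 normalised reads (log2 change 0.17, limma adjusted p = 0.0724). RPS6KB1, the gene of the S6 kinase, had a log2 change of -0.01. These are transcript levels, and phosphorylation, by which mTORC1 acts on these proteins, is not measured here. Of 23 lysosomal genes of the CLEAR network, which TFEB is known to activate, limma called 0, with 4 at an unadjusted p under 0.05, and edgeR and DESeq2 each called 1, CTSD (log2 change 0.15). The list median was -0.03. Of 7 14-3-3 genes, whose proteins bind TSC2 and AKT1S1, limma and edgeR called 0, DESeq2 called 1, YWHAB, and 2 had an unadjusted p under 0.05 by limma.

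**Figure D3:**
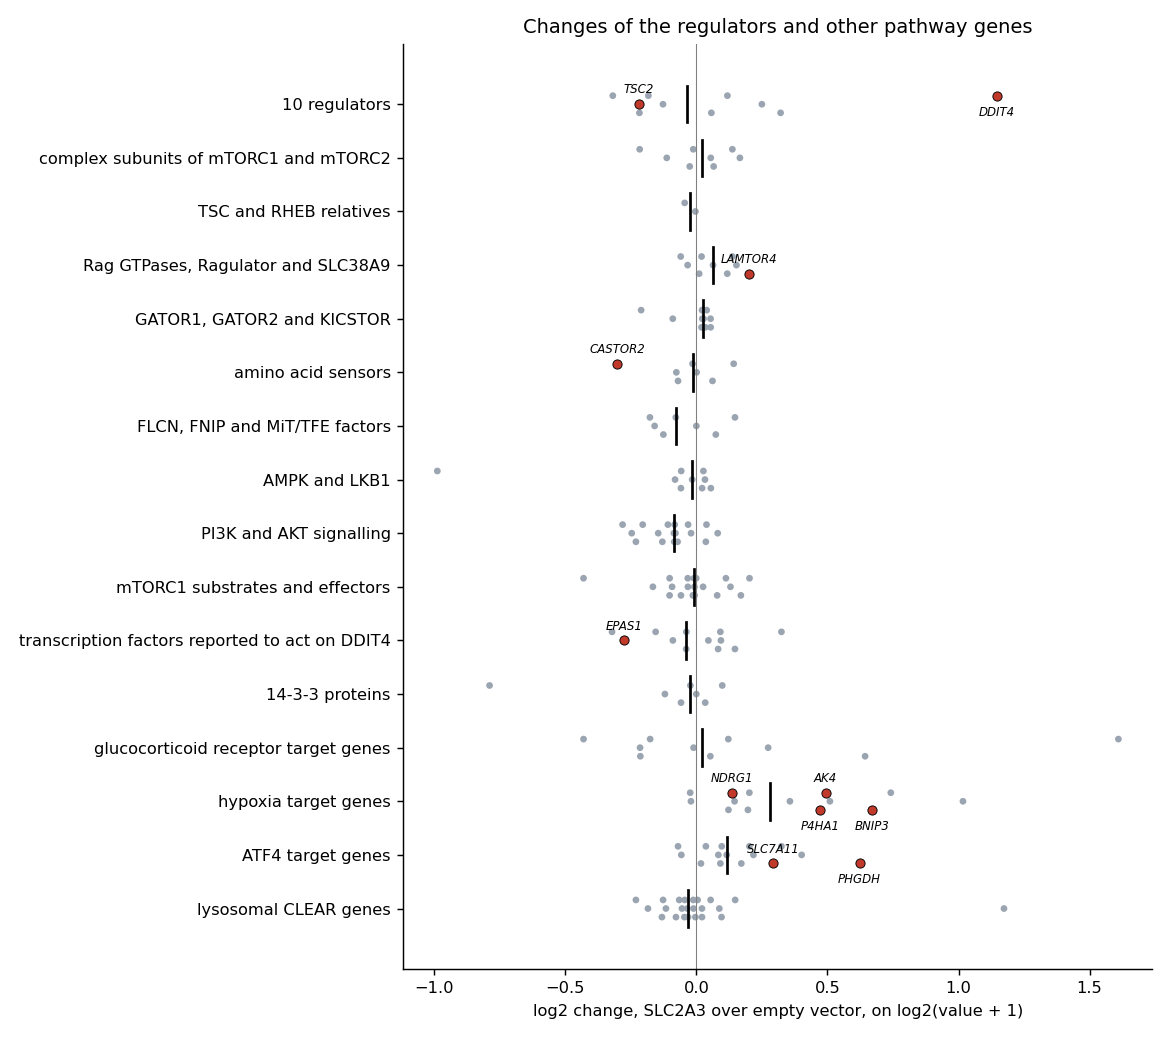
Log2 change of each tested gene between the SLC2A3 and empty vector groups, with the 10 regulators on the top line and each pathway list below. Red named points are past a limma adjusted p of 0.05, grey points are not, 1 gene not reported here is left undrawn, and black lines are medians of the whole lists. DDIT4 stands at 1.15, far from the other regulators, and the hypoxia list is centred at 0.28.

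Factors reported to act on DDIT4 transcription and other genes under the same inputs were set beside it. Of 13 such factors, limma called 0 higher and 2 lower, and 6 had an unadjusted p under 0.05. edgeR and DESeq2 each called 3. EPAS1, which encodes HIF-2α, fell from 1049 ± 26.9 to 866 ± 52.7 normalised reads (log2 change -0.28, SE 0.07, limma adjusted p = 0.0453), a call that was lost on leaving out any 1 of the 6 libraries (adjusted p of 0.056 to 0.179). HIF1A, ATF4 and DDIT3, the gene of CHOP, had log2 changes of 0.08, 0.15 and 0.32 (limma adjusted p = 0.731, 0.0668 and 0.141), and NR3C1, the glucocorticoid receptor gene, had -0.09 (0.607).

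Of 14 hypoxia target genes, 8 had an unadjusted p under 0.05 by limma, and edgeR and DESeq2 each called 5. By limma 4 rose and 0 fell (list median 0.28). BNIP3, a mitophagy receptor, had 692, 592 and 628 normalised reads in the control libraries and 977, 1081 and 983 in the SLC2A3 libraries (log2 change 0.67, limma adjusted p = 1.0e-05). P4HA1, a collagen prolyl hydroxylase, and AK4, an adenylate kinase, had log2 changes of 0.47 and 0.49 (limma adjusted p = 0.000583 and 0.00179). NDRG1 changed less, at 0.14 (0.0394), and lost its call without any library other than SLC2A3 replicate 2 (adjusted p of 0.0512 to 0.229). Within the SLC2A3 group DDIT4 and NDRG1 were highest in replicate 1 and lowest in replicate 2. BNIP3 and AK4 were highest in replicate 2, at 1081 and 734, and P4HA1 in replicate 3, at 1034. Of 15 ATF4 target genes, 4 had an unadjusted p under 0.05 by limma, and edgeR and DESeq2 each called 2. By limma 2 rose and 0 fell (list median 0.12). These were PHGDH, of serine synthesis (log2 change 0.62, limma adjusted p = 1.4e-05), and SLC7A11, the cystine transporter (0.29, 0.00854), which was not called without SLC2A3 replicate 3 (adjusted p = 0.126). ASNS, TRIB3 and CHAC1, further ATF4 targets, had 0.20, 0.17 and -0.06 and did not pass. Of 10 glucocorticoid target genes, limma called 0, with 2 at an unadjusted p under 0.05, and edgeR and DESeq2 each called 1, MT2A (log2 change 0.27). TSC22D3 and FKBP5, common markers of glucocorticoid action, had 0.12 and -0.01.

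The genes whose profiles over the 6 libraries were nearest to that of DDIT4 were sought among 11730 genes with a mean of at least 100 normalised reads, by the distance between log2 values centred on each gene's mean. All such genes share the difference between the groups, so likeness here is a description. RGS2, a regulator of G-protein signalling, was nearest, with a distance of 0.20 and a Pearson r of 0.991 over 6 libraries. It had 111, 120 and 108 normalised reads in the control libraries and 295, 222 and 242 in the SLC2A3 libraries, and like DDIT4 it was highest in SLC2A3 replicate 1 and lowest of that group in replicate 2. RNF165, SLC7A2, HSPA1A and MATK followed at distances of 0.49, 0.54, 0.56 and 0.57. HSPA1A has a near-identical copy, HSPA1B, so its reads may be split. RNF165 shared the order of DDIT4 within the SLC2A3 group, at 236, 180 and 202, and SLC7A2, a transporter of cationic amino acids such as arginine, did not, at 204, 209 and 192.

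**Figure D4:**
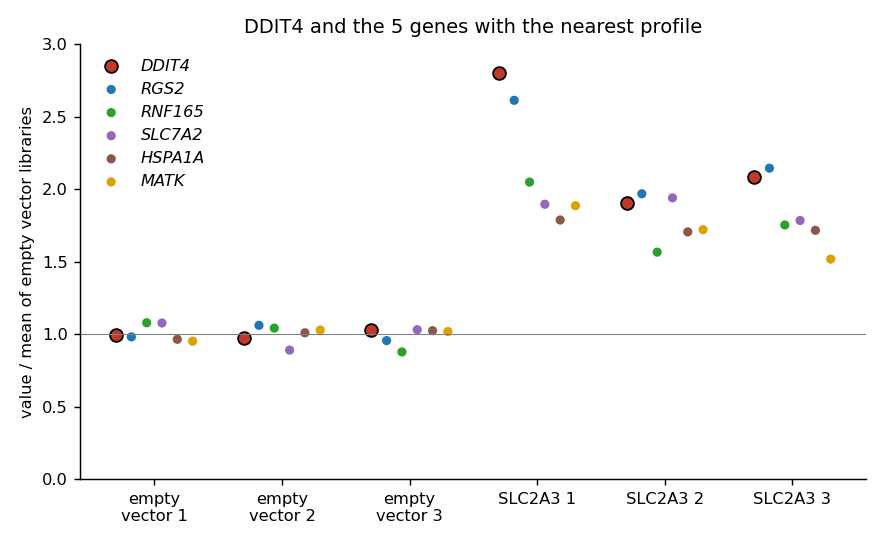
Level of DDIT4 and of the 5 genes with the nearest profile in each library, divided by the mean of the control libraries of that gene. DDIT4 and RGS2 lie close together in every library and are both highest in SLC2A3 replicate 1.

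The genes beside DDIT4 on chromosome 10 had smaller log2 changes. Of 5 protein-coding genes within 200000 bases (SPOCK2, ASCC1, DNAJB12 and ANAPC16 among them), limma, edgeR and DESeq2 called 0, with 1 at an unadjusted p under 0.05 by limma. The log2 changes of these 4 were 0.09, -0.10, -0.10 and 0.14.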

How the data were processed

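RNA-seq of 6 OCI-AML3 libraries was analysed, 3 per group, made with a directional kit per the labels' protocols. BWA, TopHat2 and hg38 appear in the submitters' processing notes, and the counter, annotation and strand setting are not given in the sources used here. The deposited signal is the number of reads per gene over a library factor: 100% of values came out whole, within 0.001 reads, once multiplied by it, and the factors equalled DESeq2 size factors. The 28015 genes reaching 1 in 3 or more libraries were fitted as log2(value + 1) with limma 3.58.1 (R 4.3.3), group as the only term and Benjamini-Hochberg adjustment, threshold 0.05. The added 1 shrinks fold changes of low genes. CASTOR1 and DEPTOR nevertheless had larger log2 changes on this scale (0.32 and -0.32) than with edgeR and TMM factors (0.20 and -0.22). Alternatives were edgeR 4.0.16 and DESeq2 1.42.0 on the recovered reads, other pseudocounts, filters and scalings, a replicate block, libraries left out and, added after seeing the data, a correction for length and GC trends.

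Members, lists and tests were chosen with earlier results of these data known. Named genes were the 10 members, SLC2A3, RN7SL1, paralogues and MLST8, up to 4 called genes per list and the 5 protein-coding genes nearest to DDIT4. Other genes named in the text (list members below the threshold, the cell type markers and the neighbours of DDIT4 and TSC2) were chosen after their values were seen. Coordinates and lengths are from GENCODE 29 (GRCh38), promoters from RefSeq (GRCh38.p14). On simulated counts for this comparison (27080 genes), limma found 84 of 100 genes given a true 1.5-fold change and 95 of 100 given 2-fold. Of its 188 calls, 9 were false. These shares describe only the genes that were given a change. Recovery of genes with few reads, such as CASTOR1 and DEPTOR, was not tested, nor was recovery of changes under 1.5-fold. Recovered reads per library ranged from 31054462 to 35770556. Of the IDs, 60641 had a symbol. A few list members and neighbouring genes are counted but not reported here by name.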

Additional observations from a re-analysis of the deposited data

How the results depend on the processing

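The DDIT4 log2 change of 1.15 stayed past the threshold in all 17 alternatives that gave it an adjusted p, at 0.98 to 1.26. DESeq2 with its default filtering gave it none. DDIT4 was chosen with this difference known, so these fits of the same 6 libraries describe it and do not test it. Leaving out 1 library gave 1 to 4 of the 10 members called in place of 2, 4 to 8 pathway genes higher in place of 7, 0 to 4 lower in place of 3, and 188 to 466 of all genes called in place of 418. Requiring 50 normalised reads in 3 libraries gave 4 members, 14 pathway genes higher and 6 lower, and 739 of all genes. Pathway genes called higher and lower numbered 13 and 6 with edgeR and TMM factors and 14 and 5 with relative log expression factors, and 13 were higher with upper-quartile factors. DESeq2 called 16 higher, 7 lower and 800 of all genes. Removing the length and GC trend gave 15 pathway genes higher, a pseudocount of 0.1 gave 0 lower, and leaving out both replicate 2 libraries gave 1 lower. The causes were not tested. Of the members, DEPTOR reversed to 0.12 without SLC2A3 replicate 1, and CASTOR1 to -0.11 without control replicate 2 and to -0.18 without both replicate 2 libraries. MTOR passed the threshold under 3 of 18 alternatives and AKT1S1 under 4. With the length and GC trend removed, log2 changes were -0.13 for MTOR, -0.07 for RPTOR, -0.18 for AKT1S1 and -0.17 for TSC2. TSC1 had 0.16 and DDIT4 had 1.14 in that fit, and DDIT4 and TSC2 stayed past the threshold. Libraries with the same replicate number did not deviate together over 11730 genes (r of -0.11, 0.01 and -0.00). No control library was closest to the SLC2A3 library of its own number. No pairing by number was thus seen over these genes as a whole. Deviations shared by replicate number in single genes were not tested. A replicate block gave a DDIT4 log2 change of 1.15 and 363 called genes, and ended the calls of EPAS1, NDRG1 and FLT3. Over the 6 fits that left out 1 library, DEPTOR ranged from -0.59 to 0.12 and CASTOR1 from -0.11 to 0.68. Low reads limit CASTOR1 and DEPTOR.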
